A study of Mus musculus with 12 samples.

Results

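The 9 genes described here encode matrix metalloproteinases, secreted or membrane-bound zinc enzymes that cut proteins of the extracellular matrix, and the tissue inhibitors that block them. They were the proteases Mmp2, Mmp3, Mmp9, Mmp10, Mmp13 and Mmp14 and the inhibitors Timp1, Timp2 and Timp4. The members were taken by gene symbol from an array table in which 19572 probe sets, called probes here, carried 1 gene symbol and stood for 19505 genes. Each of the 9 genes had 1 probe, and each probe has a value on all 12 arrays. Neurons of the trigeminal ganglion (TG), the cell bodies that carry touch, pain and temperature from the face, had been isolated from mice, grown on laminin and transfected with a microRNA. By the labels 3 arrays belong to each of miR-21, miR-34a and miR-324, and 3 to scramble miRNAs, the control that the other groups share. They name the transfected molecules no further, state no arm, dose or time after transfection, and give no strain, age or sex of the animals. Nothing in them ties an array to a culture or an animal of its own, so p-values here describe the spread among these arrays, and that spread may be technical. Arrays are named here by their group and the number assigned to them, miR-324 having 1, 2 and 4.

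Metalloproteinases are made as inactive precursors and become active once the propeptide is removed. Mmp3 and Mmp10 (stromelysins) cut proteoglycans, laminin and fibronectin and can activate other precursors, Mmp13 is a collagenase, and Mmp2 and Mmp9 are gelatinases that cut denatured collagen and basement membrane collagen. Mmp14 sits in the cell membrane and, together with Timp2, activates the precursor of Mmp2. After nerve injury these enzymes are known to act on the blood-nerve barrier, on myelin and on the matrix through which axons grow. Transcription of several of them is known to respond to cytokines and to AP-1, the Fos and Jun family of factors.

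The mature mouse sequences of the 3 miRNAs are shown because a miRNA recognises its targets through its seed, bases 2 to 8, which is in capitals. They are from RefSeq (GRCm38.p6), and since the labels state no arm, both arms are given for miR-324 and the 5p arm for the others.
mmu-miR-21a-5p: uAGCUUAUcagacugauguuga
mmu-miR-34a-5p: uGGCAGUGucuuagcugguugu
mmu-miR-324-5p: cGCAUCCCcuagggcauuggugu
mmu-miR-324-3p: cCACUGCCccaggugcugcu
These sequences had 4 different seeds. Whether a member carries a site for any of them was not analysed here.

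All signals are log2 values from the deposited table. The array medians lay between 5.91 and 6.06. As a guide to the floor of the array, 1414 probes for olfactory and vomeronasal receptors, which ganglion cultures are not known to express, had a median of 3.74 and a 95th percentile of 5.33. The label "TG neuron" was set against 11 pan-neuronal markers, whose median per array lay between 10.15 and 14.31, so neuronal transcripts were present on every array. Non-neuronal markers were present too: the median of 9 endothelial markers lay between 9.59 and 13.95 and that of 10 fibroblast markers between 7.19 and 10.68. In such mixed cultures fewer cells of a type and less RNA per cell cannot be told apart. Some labels end in 1 of 2 suffixes whose meaning is not given: suffix A stood on miR-34a 1 and 2 and on scramble 1 and 2, suffix B on miR-324 2 and scramble 3, and the other 6 arrays had none. The miR-21 arrays had no suffix and all scramble arrays had one, so for that comparison suffix and transfection cannot be told apart. Arrays also stood apart within groups: the pituitary hormone gene Prl had 14.26 to 15.17 on the miR-324 arrays and 14.92 on scramble 3, against 3.37 to 4.83 on the other 8 arrays. The Y-linked gene Eif2s3y had 7.09 to 7.85 on the miR-21 arrays, 2.27, 2.79 and 8.53 on the miR-34a arrays, 7.88, 2.96 and 5.13 on the miR-324 arrays, and 2.13 to 2.93 on the scramble arrays. In miR-21 against scramble the Y-linked signal of the material and the transfection therefore cannot be told apart. In miR-21 against miR-324 the Prl signal of the material and the transfection cannot be told apart either.

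Between the miR-21 and scramble arrays 1 of the 9 members changed in the limma fit, at an adjusted p under 0.05 (Benjamini-Hochberg, over all 19572 probes), and it was Mmp3, which fell. Of all probes 1.04% passed this threshold. The same gene was the 1 member whose groups did not overlap, where 25.6% of all probes did not, so members separated no more often than probes at large. Between miR-34a and scramble 0 of 9 members passed and 0% of all probes did, with 0 members and 5.8% of all probes not overlapping. Between miR-324 and scramble 0 of 9 members and 0% of all probes passed, with 0 members and 19.9% of all probes not overlapping. At an unadjusted p under 0.05 the limma fit held 1, 0 and 0 members for miR-21, miR-34a and miR-324 against scramble, among 3257, 286 and 2877 probes. The median difference of the members from scramble was 0.32 for miR-21, −0.31 for miR-34a and −0.45 for miR-324, beside 0.13, 0.04 and 0.09 over all probes. These comparisons share the 3 scramble arrays.

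**Figure D1:**
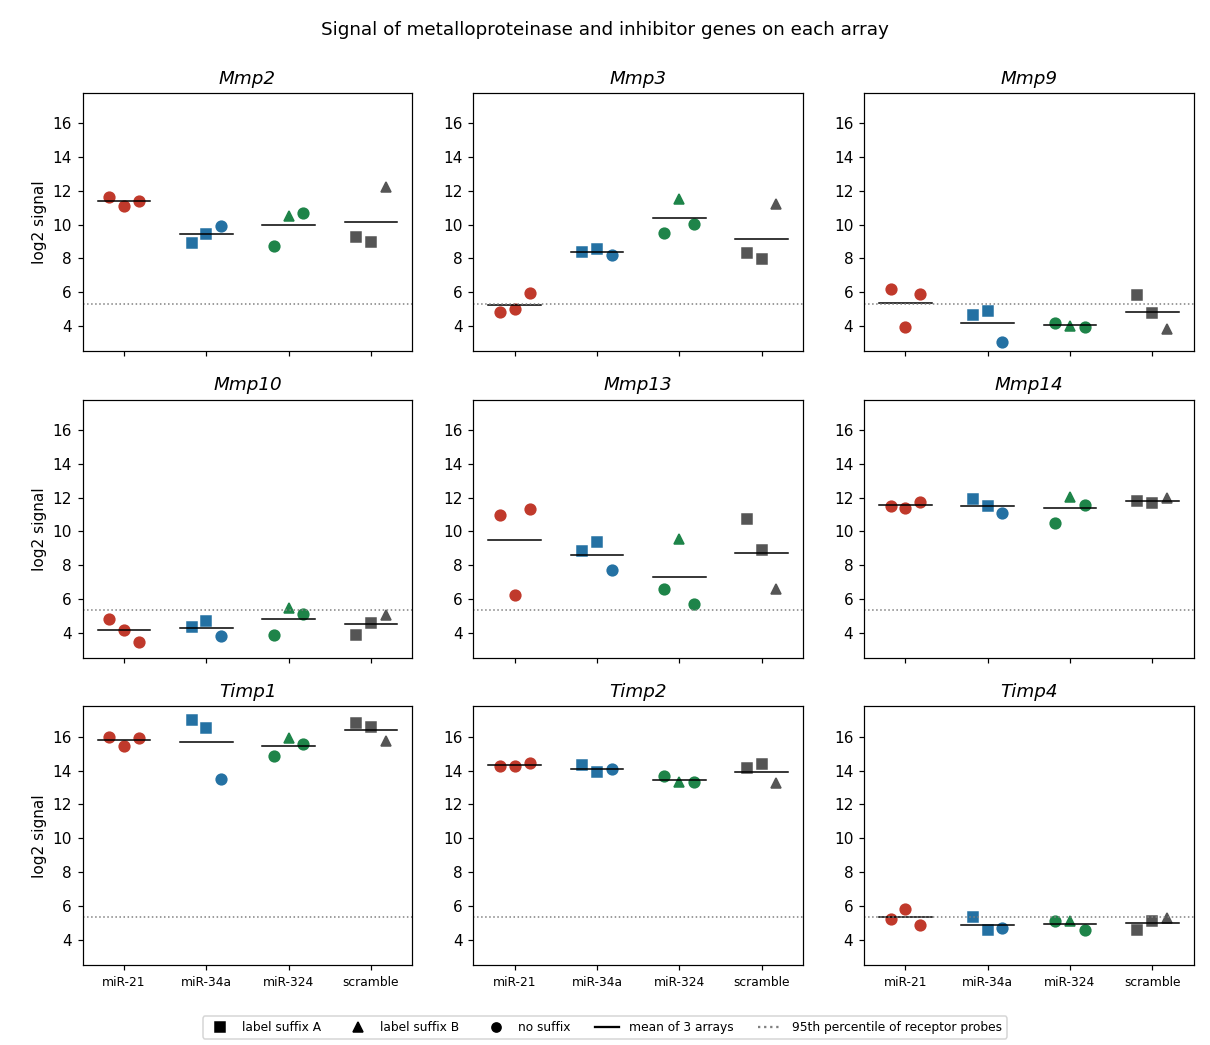
Log2 signal of each of the 9 genes on each array, by group, with the mean of 3 arrays as a bar, the label suffix as the marker shape, and the 95th percentile of the olfactory and vomeronasal receptor probes (5.33) as a dotted line. Mmp3 is lowest on the 3 miR-21 arrays, at 4.81 to 5.93, while Mmp13 spans several log2 units inside single groups and Mmp9, Mmp10 and Timp4 lie near the dotted line.

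Directly between miRNAs, miR-21 against miR-324 gave 1 of 9 members past the threshold, again Mmp3, where 2.46% of all probes passed. In that comparison 3 members did not overlap, beside 21.4% of all probes. For miR-21 against miR-34a 0 of 9 members passed, beside 0.158% of all probes, and 2 members did not overlap, beside 17% of all probes. For miR-34a against miR-324 0 of 9 members and 0% of all probes passed, and 2 members did not overlap, beside 17.1% of all probes. At an unadjusted p under 0.05 limma held 2 members in each of these comparisons, among 2879 probes for miR-21 against miR-324, 2210 for miR-21 against miR-34a and 2544 for miR-34a against miR-324.

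Mmp3 (stromelysin 1, chr9:7445822-7455975, GRCm38.p6) had 4.81, 5.02 and 5.93 on the miR-21 arrays, 8.35, 8.56 and 8.20 on the miR-34a arrays, 9.51, 11.52 and 10.06 on the miR-324 arrays, and 8.34, 7.94 and 11.21 on the scramble arrays. Coordinates here are gene spans of that RefSeq build. Every miR-21 array was below every other array, and scramble 3 was far above scramble 1 and 2. The group means were 5.25 ± 0.60 for miR-21 and 9.16 ± 1.78 for scramble (SD, n = 3 each). Mmp3 fell by 3.91 in miR-21 against scramble (SE 0.73, 95% confidence interval −5.50 to −2.32), which is 15.0-fold, with an adjusted p of 0.0293. In absolute size that was larger than the differences of 99.9% of all probes. On 2 of the 3 miR-21 arrays the signal was below 5.33, inside the range of the receptor probes, so the lower end of this difference was measured near the floor of the array.

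Against miR-324, Mmp3 fell by 5.11 in miR-21 (SE 0.73, 95% confidence interval −6.70 to −3.52), 34.5-fold as measured, with an adjusted p of 0.00588. Against miR-34a the groups again did not overlap and the difference was −3.12 (8.67-fold as measured), but the adjusted p was 0.128. Since the miR-21 mean of 5.25 was itself below 5.33, these folds, like that against scramble, are set against a signal at the floor, where differences are understated. Mmp3 averaged 8.37 ± 0.18 in miR-34a and 10.36 ± 1.04 in miR-324 (SD, n = 3 each). Neither differed from scramble beyond the spread: the differences were −0.79 (95% confidence interval −2.38 to 0.80, adjusted p = 0.999) for miR-34a and 1.20 (−0.39 to 2.79, adjusted p = 0.435) for miR-324. The groups therefore ran from miR-324 through scramble and miR-34a to miR-21, and in that order the first 3 overlapped with their neighbours and miR-21 did not. Between miR-34a and miR-324, which did not overlap, the difference was −1.99 with an adjusted p of 0.33.

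Because scramble 3 stood apart, the Mmp3 difference was also taken without it: miR-21 was then 2.89 below scramble, with an adjusted p of 0.0442. Without scramble 2 it was −4.52 (adjusted p = 0.0474). The call was lost without scramble 1 (−4.32, adjusted p = 0.0577) and without miR-21 1, 2 or 3 (adjusted p = 0.132, 0.113 and 0.0796). With the label suffix as a random block the difference was −3.66 and the adjusted p 0.0584. With the suffix as a fixed block they were −3.34 and 0.00201. No suffix held both groups, so the fixed block compared them only indirectly, through the miR-34a and miR-324 arrays. That fit is therefore no test of Mmp3 within a suffix. Against miR-324 the call held in all 6 fits that left out 1 array, at −5.54 to −4.53.

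**Figure D2:**
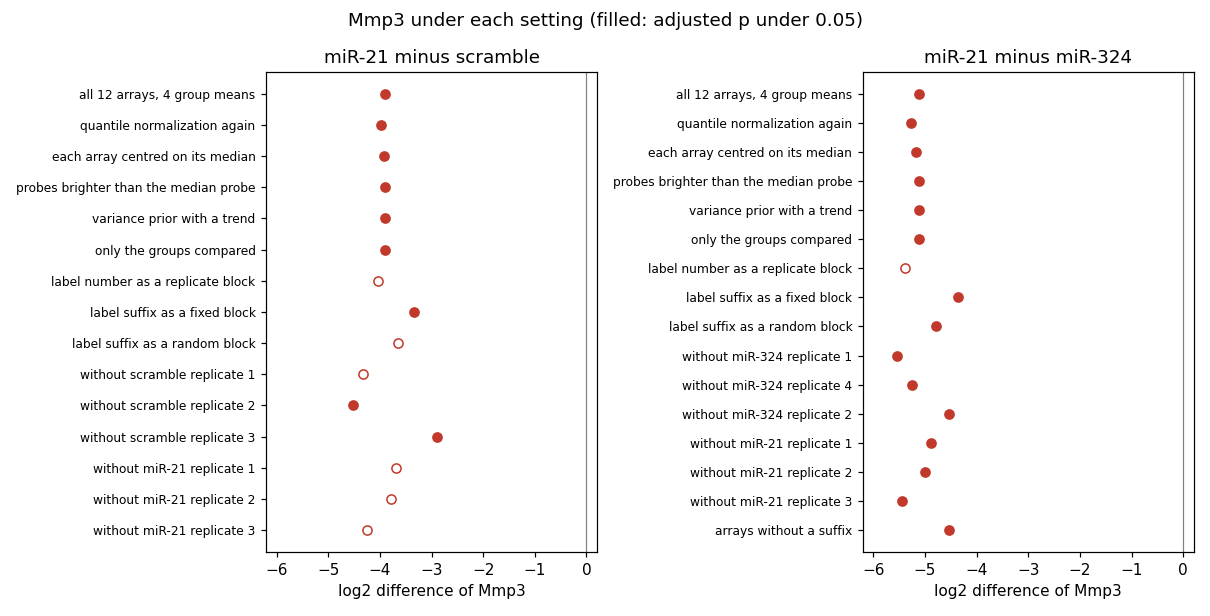
Log2 difference of Mmp3 in miR-21 against scramble (left) and in miR-21 against miR-324 (right) under each way of fitting the data, with filled points where the adjusted p was under 0.05. All points lie below 0, from −4.52 to −2.89 on the left and from −5.54 to −4.36 on the right, and the open points are the fits in which the call was lost.

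Marker levels differed between the same arrays. The summed signal of 9 of 10 listed endothelial markers was 13.97 to 14.59 on the miR-21 arrays, 14.28 to 17.42 on the miR-34a arrays, 16.79 to 18.29 on the miR-324 arrays and 14.11 to 16.53 on the scramble arrays. Of these 9 genes 4 fell in miR-21 against miR-324. Against scramble 0 passed in limma for miR-21, with 1 at an unadjusted p under 0.05. The sum of 7 of 8 listed pituitary markers was 7.07 to 7.60 on the miR-21 arrays, 6.92 to 7.16 for miR-34a, 14.34 to 15.28 for miR-324 and 6.93 to 15.14 for scramble. The part of these cells in the Mmp3 level was not tested. Fibroblasts are a known source of Mmp3. The sum of 10 of 11 listed fibroblast markers was 16.06 to 16.59 on the miR-21 arrays, 13.80 to 16.22 for miR-34a, 13.39 to 16.77 for miR-324 and 15.83 to 17.14 for scramble. These markers did not run one way: in miR-21 against scramble 3 of 10 had a higher mean, 1 of them, Col1a2, rose, and 5 had an unadjusted p under 0.05 in limma. Col1a2 was 15.10 to 15.45 on the miR-21 arrays, against 8.40 to 12.56 on the scramble arrays, while Dcn was 12.77 to 13.69, against 15.27 to 17.02. Their part in the Mmp3 level was not tested either.

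Mmp3, Mmp10 and Mmp13 lie in 1 cluster of 10 metalloproteinase genes that spans 427.1 kb of chromosome 9. The end of Mmp13 is 162.5 kb before the start of Mmp3, and the end of Mmp3 is 46.4 kb before the start of Mmp10. RefSeq promoters, 250 bases before to 50 after the start, were at hand for 7 of the 9 members, all but Mmp2 and Mmp9. The AP-1 motif TGACTCA, searched on both strands, was in the promoters of Mmp3, Mmp10 and Mmp13 and not in those windows of Mmp14, Timp1, Timp2 and Timp4. It was in 5.2% of all 32851 promoters. The same 3 promoters held TATAAA on the gene's strand, which 8.3% of all promoters held, and the other 4 did not. Of these genes Mmp3 fell and the other 2 did not pass, Mmp10 being near the floor and Mmp13 varying widely, as given below. The stretches from 80 bases before to 20 after the start are shown to set these 3 genes of the cluster side by side. Both motifs are in capitals, and the AP-1 motif reads TGAGTCA where it lies on the other strand.
Mmp3, chr9:7445742-7445841, + strand: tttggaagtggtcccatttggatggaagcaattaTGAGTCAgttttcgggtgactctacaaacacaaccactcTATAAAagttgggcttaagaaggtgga
Mmp10, chr9:7502262-7502361, + strand: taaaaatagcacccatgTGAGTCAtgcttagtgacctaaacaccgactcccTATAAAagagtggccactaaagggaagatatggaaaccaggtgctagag
Mmp13, chr9:7272434-7272533, + strand: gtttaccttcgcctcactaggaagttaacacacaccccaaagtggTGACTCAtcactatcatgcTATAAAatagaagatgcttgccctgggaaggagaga
The AP-1 match began at −46 in Mmp3, −63 in Mmp10 and −35 in Mmp13, counted from the annotated start. TATAAA began at −7, −29 and −16 in the same order. All these distances depend on where the start was annotated. A match describes the letters only. The shorter motifs AGGAAG (PEA3) and GGGCGG (SP1) were common, in 35.4% and 35.7% of all promoters on either strand. AGGAAG was in the windows of Mmp3, Mmp13, Mmp14, Timp1 and Timp4, and GGGCGG in those of Mmp14, Timp1 and Timp2.

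Mmp10 (stromelysin 2, chr9:7502342-7510242) was near the floor. Its signal was 4.83, 4.16 and 3.44 on the miR-21 arrays, 4.34, 4.71 and 3.83 on the miR-34a arrays, 3.89, 5.48 and 5.14 on the miR-324 arrays, and 3.87, 4.57 and 5.07 on the scramble arrays. A single array, miR-324 2, exceeded 5.33, and all groups overlapped. The differences from scramble were −0.36, −0.21 and 0.33 for miR-21, miR-34a and miR-324, with adjusted p of 0.727, 0.999 and 0.749.

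Mmp13 (collagenase 3, chr9:7272514-7283333) varied more inside groups than any other member. It had 10.97, 6.24 and 11.34 on the miR-21 arrays, 8.83, 9.35 and 7.71 on the miR-34a arrays, 6.59, 9.58 and 5.72 on the miR-324 arrays, and 10.74, 8.93 and 6.57 on the scramble arrays. In the miR-21 group array 2 was more than 4 log2 units below arrays 1 and 3, and every pair of groups overlapped. Its pooled SD within groups was 2.08, larger than for 99.8% of all probes, whose median was 0.37. The difference from scramble was 0.77 for miR-21 (95% confidence interval −2.23 to 3.77, adjusted p = 0.808), −0.12 for miR-34a (−3.11 to 2.88, 0.999) and −1.45 for miR-324 (−4.45 to 1.55, 0.621). With intervals this wide, changes of several-fold in either direction would not have been detectable with 3 arrays a group.

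Mmp2 (gelatinase A, chr8:92827290-92853421) had 11.62, 11.09 and 11.40 on the miR-21 arrays, 8.91, 9.42 and 9.92 on the miR-34a arrays, 8.75, 10.48 and 10.66 on the miR-324 arrays, and 9.27, 8.99 and 12.21 on the scramble arrays. The miR-21 arrays were above all miR-34a and miR-324 arrays, but scramble 3 was the highest array of all. The difference was 1.21 in miR-21 against scramble (SE 0.73, adjusted p = 0.422), 1.95 against miR-34a (adjusted p = 0.357) and 1.41 against miR-324 (adjusted p = 0.407), none past the threshold. Without scramble 3 the first difference was 2.24, with an adjusted p of 0.0725. Over all 6 fits that left out 1 array it ran from 0.63 to 2.24, with limma's adjusted p from 0.0725 to 0.75. The differences of miR-34a and miR-324 from scramble were −0.74 and −0.19, with adjusted p of 0.999 and 0.915.

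Mmp9 (gelatinase B, chr2:164940326-164955850) was dim. It had 6.19, 3.97 and 5.88 on the miR-21 arrays, 4.64, 4.87 and 3.06 on the miR-34a arrays, 4.16, 4.01 and 3.94 on the miR-324 arrays, and 5.86, 4.76 and 3.85 on the scramble arrays. On 3 arrays, miR-21 1 and 3 and scramble 1, it was above 5.33, and the groups overlapped. The differences from scramble were 0.52, −0.63 and −0.79 for miR-21, miR-34a and miR-324, with adjusted p of 0.71, 0.999 and 0.555. Neutrophils are known to carry Mmp9, and the median of 7 neutrophil markers was 3.64 to 3.98 on the miR-21 arrays, 4.22 to 10.29 for miR-34a, 3.89 to 4.77 for miR-324 and 4.26 to 11.17 for scramble. Their part in the Mmp9 level was not tested.

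Mmp14 (membrane type 1, chr14:54431598-54442456), the activator of pro-Mmp2, was well above the floor. It had 11.50, 11.38 and 11.73 on the miR-21 arrays, 11.89, 11.52 and 11.10 on the miR-34a arrays, 10.51, 12.02 and 11.56 on the miR-324 arrays, and 11.79, 11.69 and 11.95 on the scramble arrays. The lowest array was miR-324 1, and the groups overlapped. The differences from scramble were −0.27 (95% confidence interval −1.02 to 0.47), −0.31 (−1.05 to 0.44) and −0.45 (−1.19 to 0.30) for miR-21, miR-34a and miR-324, with adjusted p of 0.718, 0.999 and 0.534.

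**Figure D3:**
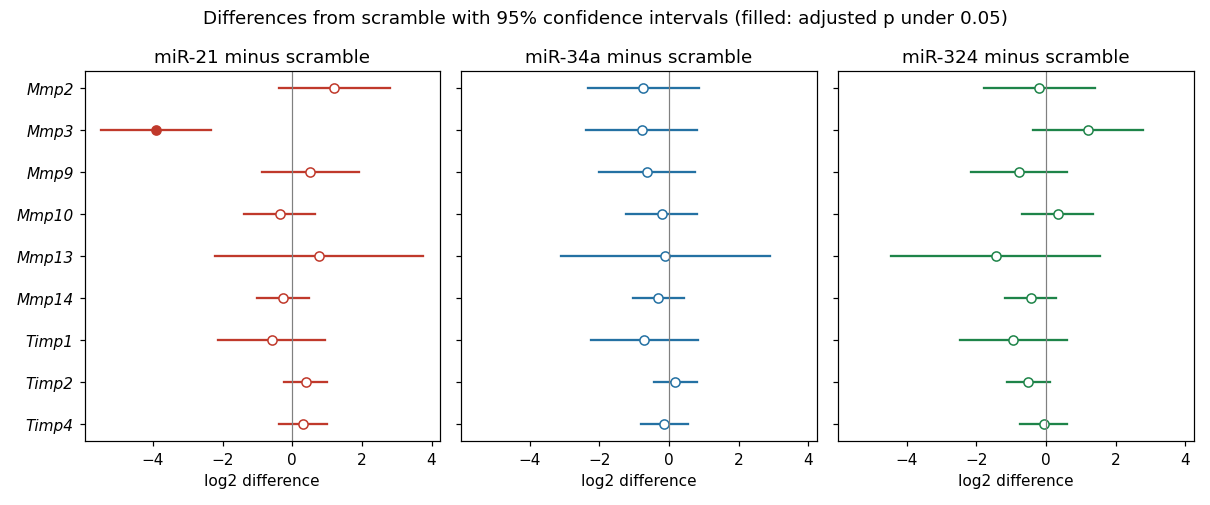
Log2 difference of each of the 9 genes from scramble, in panels for miR-21, miR-34a and miR-324, with 95% confidence intervals from the limma fit and a filled point where the adjusted p was under 0.05. The 1 filled point is Mmp3 in miR-21, at −3.91, and the widest intervals belong to Mmp13.

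Timp1, a secreted inhibitor that binds most metalloproteinases but Mmp14 poorly (chrX:20870166-20874737), had 15.99, 15.45 and 15.94 on the miR-21 arrays, 17.00, 16.53 and 13.49 on the miR-34a arrays, 14.84, 15.94 and 15.55 on the miR-324 arrays, and 16.79, 16.60 and 15.77 on the scramble arrays. The lowest array was miR-34a 3, more than 3 log2 units below miR-34a 1 and 2. The differences from scramble were −0.59, −0.71 and −0.94 for miR-21, miR-34a and miR-324, with adjusted p of 0.703, 0.999 and 0.524.

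Timp2, the inhibitor that also serves Mmp14 in activating pro-Mmp2 (chr11:118301061-118355411), had the narrowest range of the 9 members over the 12 arrays, 1.20. It had 14.25, 14.30 and 14.46 on the miR-21 arrays, 14.35, 13.92 and 14.09 on the miR-34a arrays, 13.66, 13.31 and 13.31 on the miR-324 arrays, and 14.16, 14.41 and 13.26 on the scramble arrays. The miR-21 and miR-34a arrays were above all miR-324 arrays, and scramble 3 was lower still. The difference was 0.91 in miR-21 against miR-324 (95% confidence interval 0.29 to 1.53, limma's unadjusted p = 0.00727, adjusted p = 0.136) and 0.69 in miR-34a against miR-324 (adjusted p = 0.35). Against scramble the differences were 0.39, 0.18 and −0.52 for miR-21, miR-34a and miR-324, with adjusted p of 0.505, 0.999 and 0.395.

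Timp4 (chr6:115244444-115252205), an inhibitor best known from heart and brain, was near the floor, above 5.33 on 2 arrays. It had 5.24, 5.83 and 4.87 on the miR-21 arrays, 5.34, 4.55 and 4.69 on the miR-34a arrays, 5.11, 5.10 and 4.56 on the miR-324 arrays, and 4.59, 5.13 and 5.27 on the scramble arrays. The groups overlapped, and the differences from scramble were 0.32, −0.14 and −0.07 for miR-21, miR-34a and miR-324, with adjusted p of 0.643, 0.999 and 0.925.

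By annotation Timp1 lies inside the synapsin gene Syn1, Timp4 inside Syn2 and Timp3, which is not a member, inside Syn3. Synapsins coat synaptic vesicles of neurons. Of the 3 synapsin genes 0 passed limma's threshold against scramble, and 0 had an unadjusted p under 0.05. Syn1 had 12.11, 11.62 and 12.27 on the miR-21 arrays, 13.57, 13.35 and 9.18 on the miR-34a arrays, 10.16, 11.25 and 11.02 on the miR-324 arrays, and 13.09, 13.54 and 11.18 on the scramble arrays. On miR-34a 3 Syn1 and Timp1 were both at their lowest of the 12 arrays. The median of the 11 pan-neuronal markers was also lowest there, at 10.15, and its part in these levels was not tested. Syn2 was 7.80 on that array, also its lowest, while Timp4 was 4.69 there, inside its range on the other arrays.

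Within label suffixes the members were also set side by side. Among arrays of suffix A, miR-34a 1 and 2 differed from scramble 1 and 2 by −0.75 (Mmp13) to 0.32 (Mmp3), with an adjusted p of 0.997 for every member. For suffix B there was 1 array in each group and so no test: miR-324 2 minus scramble 3 was 3.01 for Mmp13, −1.73 for Mmp2, 0.31 for Mmp3, and between −0.17 and 0.41 for the other 6. Among arrays without a suffix, Mmp3 was 4.53 lower in miR-21 (arrays 1, 2 and 3) than in miR-324 (arrays 1 and 4 only). Prl also separated these arrays, at 3.37 to 3.98 against 14.98 and 15.17, so material and transfection cannot be told apart there. Against the single miR-34a array of that kind, miR-34a 3, no test is given: the miR-21 mean was 2.95 below it for Mmp3 and 2.30 above it for Timp1, which was 17.00 and 16.53 on the other miR-34a arrays. No suffix held both miR-21 and scramble.

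Across the 12 arrays, which share groups and suffixes, the signals of some members ran together, given here as a description. Mmp9 and Mmp13 had a Pearson r of 0.81, and 0.81 after the group means were removed. Mmp3 and Timp2 ran in opposite directions, with an r of −0.83 and −0.80 within groups. Mmp2 and Mmp3 had an r of −0.17 over all arrays but 0.83 within groups. On scramble 3 and miR-324 2 both were above their group means, while the miR-21 group had the highest mean for Mmp2 and the lowest for Mmp3.

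Among 3392 named genes that varied by over 2 log2 units, those most like Mmp3 over the 12 arrays were Pde4b (r = 0.99) and Pim1 (r = 0.98). Pde4b, a phosphodiesterase that breaks down cyclic AMP, had 9.83, 9.66 and 10.56 on the miR-21 arrays, 11.52, 11.55 and 11.60 on the miR-34a arrays, 12.12, 12.93 and 12.46 on the miR-324 arrays, and 11.29, 11.65 and 13.08 on the scramble arrays. As for Mmp3, its miR-21 arrays were the lowest of all and scramble 3 was above the other scramble arrays. Nearest to Mmp2 were Ndrg1 (r = 0.81) and Angptl4 (0.77), to Mmp9 Gpx3 (0.93) and Acp5 (0.87), and to Mmp10 Has1 (0.87) and Uap1 (0.83). Nearest to Mmp13 were Acp5 (0.86), the tartrate-resistant phosphatase of osteoclasts and macrophages, and Serpinb2 (0.83), an inhibitor of plasminogen activators. Acp5 had 8.10, 3.94 and 8.55 on the miR-21 arrays, so it was low on the same miR-21 array as Mmp13 and Mmp9. Nearest to Timp1 were Slc29a1 (r = 0.97) and Arxes2 (0.97). Mmp14, Timp2 and Timp4 ranged over less than 2 log2 units and were given no such neighbours.

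Of 17 other metalloproteinase genes 15 were measured, and 0 of them passed limma's threshold for any miRNA against scramble. At an unadjusted p under 0.05 there were 5, 0 and 3 for miR-21, miR-34a and miR-324. Their median differences were −0.04, −0.03 and 0.02 for miR-21, miR-34a and miR-324. The 2 with the highest signal were Mmp12 (macrophage elastase) and Mmp25 (a membrane-anchored protease of leukocytes). Mmp12, which lies between Mmp13 and Mmp3 in the cluster, had 8.56, 5.83 and 8.19 on the miR-21 arrays, 10.88, 11.16 and 7.74 on the miR-34a arrays, 7.71, 8.10 and 7.07 on the miR-324 arrays, and 12.08, 11.53 and 9.75 on the scramble arrays. All miR-21 arrays and all miR-324 arrays were below the scramble arrays, with differences of −3.59 (adjusted p = 0.082) and −3.49 (adjusted p = 0.309). Mmp25 averaged 8.11 ± 0.44 in miR-21 and 9.11 ± 1.26 in scramble (SD, n = 3 each), with an adjusted p of 0.561. Mmp8 (neutrophil collagenase, named after its values were seen) was high on the same 4 arrays of suffix A, at 7.24 and 7.77 on miR-34a 1 and 2 and 7.96 and 8.27 on scramble 1 and 2, and was 5.47 or less on the others.

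Most leukocyte markers, though not all, were high on the same 4 arrays. The median of 7 of 8 listed neutrophil markers was 9.41 to 11.17 on the 4 arrays of suffix A and 3.64 to 4.77 on the other 8. The summed signal of the list was 6.97 to 7.68 on the miR-21 arrays, 7.92 to 13.21 on the miR-34a arrays, 7.24 to 8.13 on the miR-324 arrays and 7.56 to 14.42 on the scramble arrays. For 13 of 14 listed macrophage markers the sum was 10.74 to 11.28, 9.00 to 14.45, 8.86 to 9.15 and 9.60 to 14.56 in the same order of groups. In limma 0 of these markers passed the threshold against scramble, and for miR-34a 0 had an unadjusted p under 0.05. For miR-21 6 neutrophil and 4 macrophage markers had one, and for miR-324 5 neutrophil and 9 macrophage markers. Their part in the levels of Mmp8, Mmp12 and Mmp25 was not tested. On the 8 arrays without suffix A the neutrophil genes Elane, Ngp, Retnlg and Camp were at 4.77 or less, inside the range of the receptor probes. The other 3 were not all so low there. Mpo was above 5.33 on 7 of the 8, up to 6.67. S100a8 reached 6.67 on miR-324 2 and S100a9 6.21 on miR-21 2. Camp was below 5.33 on the 4 arrays of suffix A as well, at 3.44 to 4.99. So was Cd163 of the macrophage list, at 4.48 to 5.13. Cx3cr1 and Adgre1 of that list did not separate the arrays either. Cx3cr1 was 4.07 to 5.63 on the 4 arrays of suffix A and 3.52 to 5.15 on the other 8. Adgre1 was 5.46 to 7.36 and 4.37 to 5.73 in the same order.

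**Figure D4:**
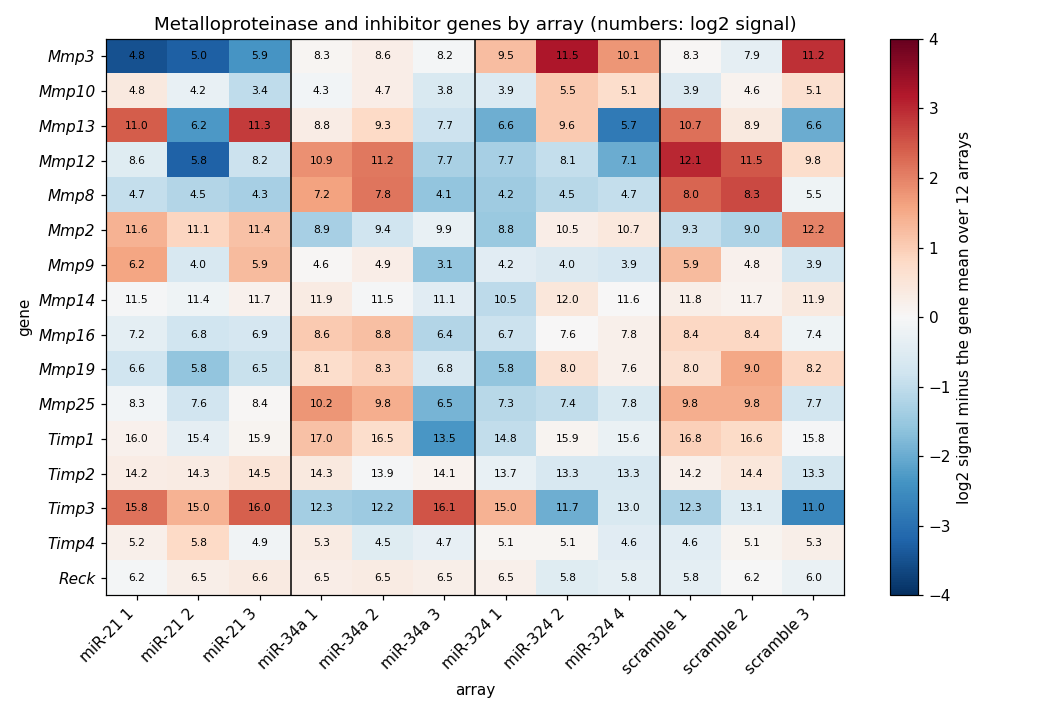
Metalloproteinase and inhibitor genes (rows) on each array (columns), with the log2 signal printed in each cell and the colour giving the signal minus the gene's mean over the 12 arrays. Mmp3 is blue on the 3 miR-21 arrays, Mmp8, Mmp12, Mmp16 and Mmp25 are red on miR-34a 1 and 2 and scramble 1 and 2, and Timp3 is red on the miR-21 arrays, miR-34a 3 and miR-324 1.

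Of 3 other inhibitors, Timp3, Reck and A2m, 0 passed in limma against scramble, and 1 had an unadjusted p under 0.05 for miR-21. Timp3, which binds to the matrix, had 15.80, 15.01 and 16.01 on the miR-21 arrays, 12.26, 12.19 and 16.14 on the miR-34a arrays, 15.01, 11.68 and 13.02 on the miR-324 arrays, and 12.32, 13.10 and 11.03 on the scramble arrays. The miR-21 arrays were all above the scramble arrays, by 3.46 on average with an adjusted p of 0.124, and miR-34a 3 was as high as they were. Reck, a membrane-anchored inhibitor, differed from scramble by 0.40 in miR-21 with an adjusted p of 0.412. Of 9 activators and docking partners 0 passed in limma against scramble, with 3, 0 and 1 at an unadjusted p under 0.05 for miR-21, miR-34a and miR-324. The highest signals were those of Bsg (an inducer of metalloproteinases) and Cd44 (a docking site for Mmp9), which averaged 16.52 ± 0.27 and 16.19 ± 0.27 in miR-21, against 16.26 ± 0.50 and 15.60 ± 0.49 in scramble (SD, n = 3 each).

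In the plasminogen system, whose product plasmin activates several precursors, 7 of 9 genes were measured and 0 passed in limma against scramble, with 2, 0 and 1 at an unadjusted p under 0.05 for miR-21, miR-34a and miR-324. Plaur, the urokinase receptor, was lower in every miR-21 array than in any scramble array, at 10.14 ± 0.49 in miR-21 and 11.46 ± 0.60 in scramble (SD, n = 3 each), with a difference of −1.32 and an adjusted p of 0.0981. Plat, tissue plasminogen activator, differed by 0.09 (adjusted p = 0.893). Of 15 ADAM and ADAMTS proteases, relatives that shed membrane proteins or cut proteoglycans, 14 were measured and 0 passed in limma against scramble, with 4, 0 and 3 at an unadjusted p under 0.05. Adam10 and Adam9 differed from scramble by 1.48 and 0.59 in miR-21, with adjusted p of 0.179 and 0.302.

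Of 18 upstream cytokines and AP-1 and ETS factors, 1 rose in miR-21 against scramble and 0 passed in miR-34a or miR-324 (limma, with 8, 0 and 3 at an unadjusted p under 0.05). It was Lif, a cytokine induced in injured nerve, with 13.56, 13.10 and 13.47 on the miR-21 arrays and 11.92, 11.86 and 11.70 on the scramble arrays. The rise was 1.55 (SE 0.32, adjusted p = 0.0441), and it passed in 0 of the 6 fits that left out 1 array (adjusted p = 0.094 to 0.171). The call was also lost with the label suffix as a random block (1.29, adjusted p = 0.174) and as a fixed block (0.96, adjusted p = 0.345). Lif also rose against miR-324, by 2.23 (adjusted p = 0.00638). Fos and Jun, which bind the AP-1 motif and were also named after their values were seen, differed from scramble by 1.64 and 0.85 in miR-21, with adjusted p of 0.245 and 0.16. Il6, named in the same way, was at 4.93, 5.18 and 4.79 on the miR-21 arrays, below 5.33, and at 10.05, 9.83 and 12.61 on the scramble arrays. Its groups did not overlap, and the difference of −5.86 had an adjusted p of 0.0716. On the miR-34a arrays Il6 was 10.12, 10.14 and 5.92, and on the miR-324 arrays 6.00, 12.03 and 10.80. Its lowest values in these groups were on miR-34a 3 and miR-324 1. Mmp3 was also lowest in its group there, at 8.20 against 8.35 and 8.56 in miR-34a and 9.51 against 11.52 and 10.06 in miR-324. On both arrays it was above every miR-21 array. Within miR-34a, however, Mmp3 ranged over only 0.36 and Il6 over 4.22. The part of Il6 in the Mmp3 level was not tested.

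Of 16 matrix substrates 15 were measured, and 3 rose in miR-21 against scramble while 0 passed in miR-34a or miR-324 (limma, with 10, 0 and 4 at an unadjusted p under 0.05). The list's median difference was 1.10 in miR-21, beside 0.13 over all probes. Col1a2, a chain of type I collagen, had 15.45, 15.10 and 15.38 on the miR-21 arrays and 12.56, 11.63 and 8.40 on the scramble arrays, a rise of 4.45 (SE 0.83, adjusted p = 0.0291). Hspg2 (perlecan), a proteoglycan of basement membranes cut by Mmp3, had 14.10, 13.60 and 13.86 on the miR-21 arrays and 9.93, 10.14 and 10.23 on the scramble arrays, a rise of 3.75 (SE 0.59, adjusted p = 0.0172). Lamc1, the laminin gamma 1 chain, had 13.52, 13.33 and 13.35 on the miR-21 arrays and 11.49, 11.73 and 11.40 on the scramble arrays, a rise of 1.86 (SE 0.29, adjusted p = 0.017). In the 6 fits that left out 1 array Col1a2 passed in 2, Hspg2 in 1 and Lamc1 in 2. With the label suffix as a fixed or a random block, Hspg2 was 1.95 and 2.96 (adjusted p = 0.055 and 0.0659) and Lamc1 1.41 and 1.66 (adjusted p = 0.0712 and 0.0594), so both calls were lost, and Col1a2 kept its call at 4.70 and 4.56. For miR-21 against scramble the fixed block was again indirect, as no suffix held both groups. Col1a2 is also on the fibroblast list. On the arrays without a suffix that were not miR-21, Hspg2 was 13.00 on miR-34a 3 and 13.23 and 11.81 on miR-324 1 and 4, above every scramble array. The cells had been grown on laminin, and the array does not measure that coating. Markers of other matrix-producing or dividing cells differed in the same contrast. Of 7 myelinating Schwann cell markers 7 had a higher mean in miR-21 than in scramble and 2 rose (median 1.44). Of 7 satellite glia and Schwann lineage markers 6 had a higher mean and 0 passed, with 5 at an unadjusted p under 0.05 in limma (median 1.07). Of 9 mural cell markers 5 had a higher mean and 1 rose (median 0.16), so this list did not run one way. Of 7 cell cycle markers 7 had a higher mean and 0 passed, with 2 at an unadjusted p under 0.05 in limma (median 1.51). The summed signal on the miR-21 and scramble arrays was 16.97 to 17.37 and 15.11 to 16.69 for myelinating Schwann cells, 14.74 to 15.01 and 12.31 to 14.15 for the Schwann lineage, 17.33 to 17.36 and 10.75 to 15.30 for mural cells, and 12.93 to 13.25 and 8.93 to 12.06 for the cell cycle. On the miR-21 arrays the mural sum rested mostly on Tagln (16.52 to 16.62) and Acta2 (15.80 to 16.03). Rgs5, of the same list, was 6.41 to 7.23 there, against 7.74 to 8.49 on the scramble arrays. The part of these cells in the substrate levels was not tested.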

How the data were processed

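Total RNA of mouse trigeminal cultures was hybridised to 12 arrays, 3 a group. The deposited values are log2 signals that the authors made with Transcriptome Analysis Console 4.0 and RMA, per the submitters' processing notes. This method corrects background, brings the arrays to a common distribution and summarises each probe set, so a change of total signal is removed and values near the floor understate differences. Arrays have no read depth, and the number of arrays limits the precision. Of 22206 probes, 2634 were unnamed here and left out. Group means of all 12 arrays were fitted in R 4.3.3 with limma 3.58.1 (eBayes, 8 residual degrees of freedom), two-sided, with Benjamini-Hochberg adjustment over 19572 probes and a threshold of 0.05. Confidence intervals and ± values come from this fit and from the 3 arrays of a group. The script was tested on simulated data. All 9 members are named. Of each list the genes past the threshold against scramble are named, up to 4 by size of difference, otherwise the 2 brightest. Other genes, the motifs and the receptor floor were chosen after their values or sequences were seen. Members and lists were chosen with earlier results of these data known, so their counts are not independent evidence. Alternatives were other scalings, a brightness filter, a variance trend, only the groups compared, label number and suffix as blocks, and each array left out.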

Additional observations from a re-analysis of the deposited data

Results flagged for a closer look

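The differences of miR-21 and of miR-324 from the shared scramble arrays were not alike for Mmp3: they were −3.91 and 1.20. The test of that difference is the direct comparison of both groups, in which Mmp3 was −5.11 in miR-21 against miR-324 (limma, adjusted p = 0.00588), with 4.81, 5.02 and 5.93 on the miR-21 arrays and 9.51, 11.52 and 10.06 on the miR-324 arrays. It was lower on 3 of 3 miR-21 arrays than on any miR-324 array. Prl was 3.37 to 3.98 on the miR-21 arrays and 14.26 to 15.17 on the miR-324 arrays. In this comparison the material, as marked by Prl, and the transfection cannot be told apart.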

How the results depend on the processing

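For the members, 286 values from fits without 1 array kept their direction and their side of the threshold, 34 uncalled ones turned direction or moved and 4 lost their call. Under other settings 400 kept both, 40 uncalled ones moved, 7 gained and 3 lost a call, and 0 called values turned direction. Most kept values were uncalled ones that stayed uncalled, so these totals say little about the calls. Only Mmp3 was called, in miR-21 against scramble and against miR-324. Its calls held in 2 of 6 and 6 of 6 fits without 1 array. Mmp3 in miR-21 against scramble lost its call with the label number as a replicate block (−4.04, adjusted p = 0.165) and with the suffix as a random block, as given above. Against miR-324 it was lost with the replicate block only (−5.39, adjusted p = 0.0677). The label numbers gave no clear pairing of the samples: 3 of 16 same-numbered pairs of arrays had deviations correlated above 0.1 (−0.41 to 0.36). The same-numbered pairs inside suffix A, scramble 1 with miR-34a 1 and scramble 2 with miR-34a 2, were at 0.31 and 0.36. Most pairs crossed suffixes, so this check cannot exclude pairing. With only the groups compared Mmp3 passed in miR-21 against miR-34a (adjusted p = 0.0227), and with the suffix as a fixed block Mmp3, Mmp9 (2.23) and Timp1 (1.95) passed there and Mmp2 (1.84) against miR-324. That block also turned Syn1 and Syn2 in miR-21 against scramble to 2.31 and 2.44, where it compares the groups only indirectly. Members called were 0 with the replicate block, 0 with the random block and 0 to 1 without 1 array for miR-21 against scramble (1 in the fit reported), 1 with only the groups compared and 3 with the fixed block for miR-21 against miR-34a (0 reported), and 0 with the replicate block and 2 with the fixed block for miR-21 against miR-324 (1 reported).

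Probes called for miR-21 against scramble (204) were 906 with only the groups compared, 2 with the replicate block, 684 with the fixed and 34 with the random suffix block, and 11 to 81 without 1 array. For miR-21 against miR-324 (481) they were 1043, 23, 1354 and 803 in that order, and 86 to 402 without 1 array. For miR-21 against miR-34a (31) they were 47 among bright probes, 5 with the replicate block, 1004 with the fixed block and 2 to 537 without 1 array. For miR-324 against scramble (0) they were 0 to 383 without 1 array, the most without scramble 3. For miR-34a against miR-324 (0) they were 1 with only the groups compared and 0 to 801 without 1 array, the most without miR-34a 3. The causes were not tested. Mmp9, Mmp10 and Timp4 were dimmer than the median probe (6.12) and dropped out under the brightness filter, so differences in them are limited by signal over background. Values without a second array of a group assume that the lone array varies like the other groups.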
